A study of Homo sapiens with 4 samples.

Results

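The genes of the GATA factors GATA1 and GATA2, the GATA cofactor FOG1 (gene ZFPM1), the repressors GFI1 and GFI1B, and the corepressor pair LSD1 (gene KDM1A) and CoREST (gene RCOR1) were examined for H3K27ac, acetylation of histone H3 as found at active promoters and enhancers. These 7 genes, of 20149 protein-coding genes, were given by name, and all listed H3K27ac peaks in each gene body with 50 kb on each side (hg19) were taken. The cells were K562, a human erythroleukaemia line, with a non-targeting control shRNA (shNT), a first TFAM shRNA (hairpin 1) or a second TFAM shRNA (hairpin 2). TFAM is the mitochondrial transcription factor that also compacts mitochondrial DNA. The series asked how histone hyperacetylation in TFAM-deficient erythroid cells shows in the H3K27ac map. Each condition had 1 library and 1 peak list, so there is no spread between replicates and no test of any difference. Both hairpins were compared with the same control library. No source used here gave the time after transduction, the degree of knockdown or the sequencing depth, and a peak list does not measure the knockdown.

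GATA1 and GATA2 are zinc finger proteins that bind the DNA word GATA. GATA2 acts in blood progenitors, and GATA1 replaces it at many sites, the GATA2 gene among them, as red cells mature. FOG1 binds the zinc finger domain of GATA1 and brings in the NuRD repressor complex. GFI1 and GFI1B, which bind words with the core AATC, carry a short SNAG domain that recruits LSD1, a histone demethylase, held by its scaffold CoREST. GFI1B is needed in red cell and platelet precursors and GFI1 in granulocyte precursors, and each is known to repress its own gene and that of the other.

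The 7 windows held 29 of 23413 control peaks, 32 of 23819 hairpin 1 peaks and 31 of 27007 hairpin 2 peaks. The lists covered 52.1, 54.4 and 61.9 Mb in that order. Joined where they overlapped, the peaks made 44 regions of 33834 in the genome. In each list a peak has a start, an end and a score of the authors, used here only as a percentile rank within its own list. The labelled cell type was checked at K562 markers. LMO2, HBZ, TFRC and EPOR had a promoter peak in every list, TAL1 had one in 2 lists, and LYL1, HBE1 and HBG1 had none. Of 13 markers of lymphoid, liver, neural and epithelial cells, only EPCAM had a promoter peak, in every list. CDH1 had none, with 1674, 5696 and 854 bp covered within 5 kb of its start site in control, hairpin 1 and hairpin 2.

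The promoters of the 7 genes fell into 5 different patterns. KDM1A and RCOR1 had a promoter peak in all lists (2 of 7, against 50.3% of all coding genes). GFI1B had one in the control alone (0.829% of all genes), GFI1 in both hairpins and not in the control (1.53%), and ZFPM1 in control and hairpin 1 and not in hairpin 2 (1.21%). GATA1 and GATA2 had none in any list (41.4%). A promoter was the canonical start site with 1 kb on each side. With 2.5 kb on each side, GATA2 had one in control and hairpin 1, and no other member changed. With 1 gene each in 3 of these patterns, the members' shares cannot be set against the background shares.

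**Figure D1:**
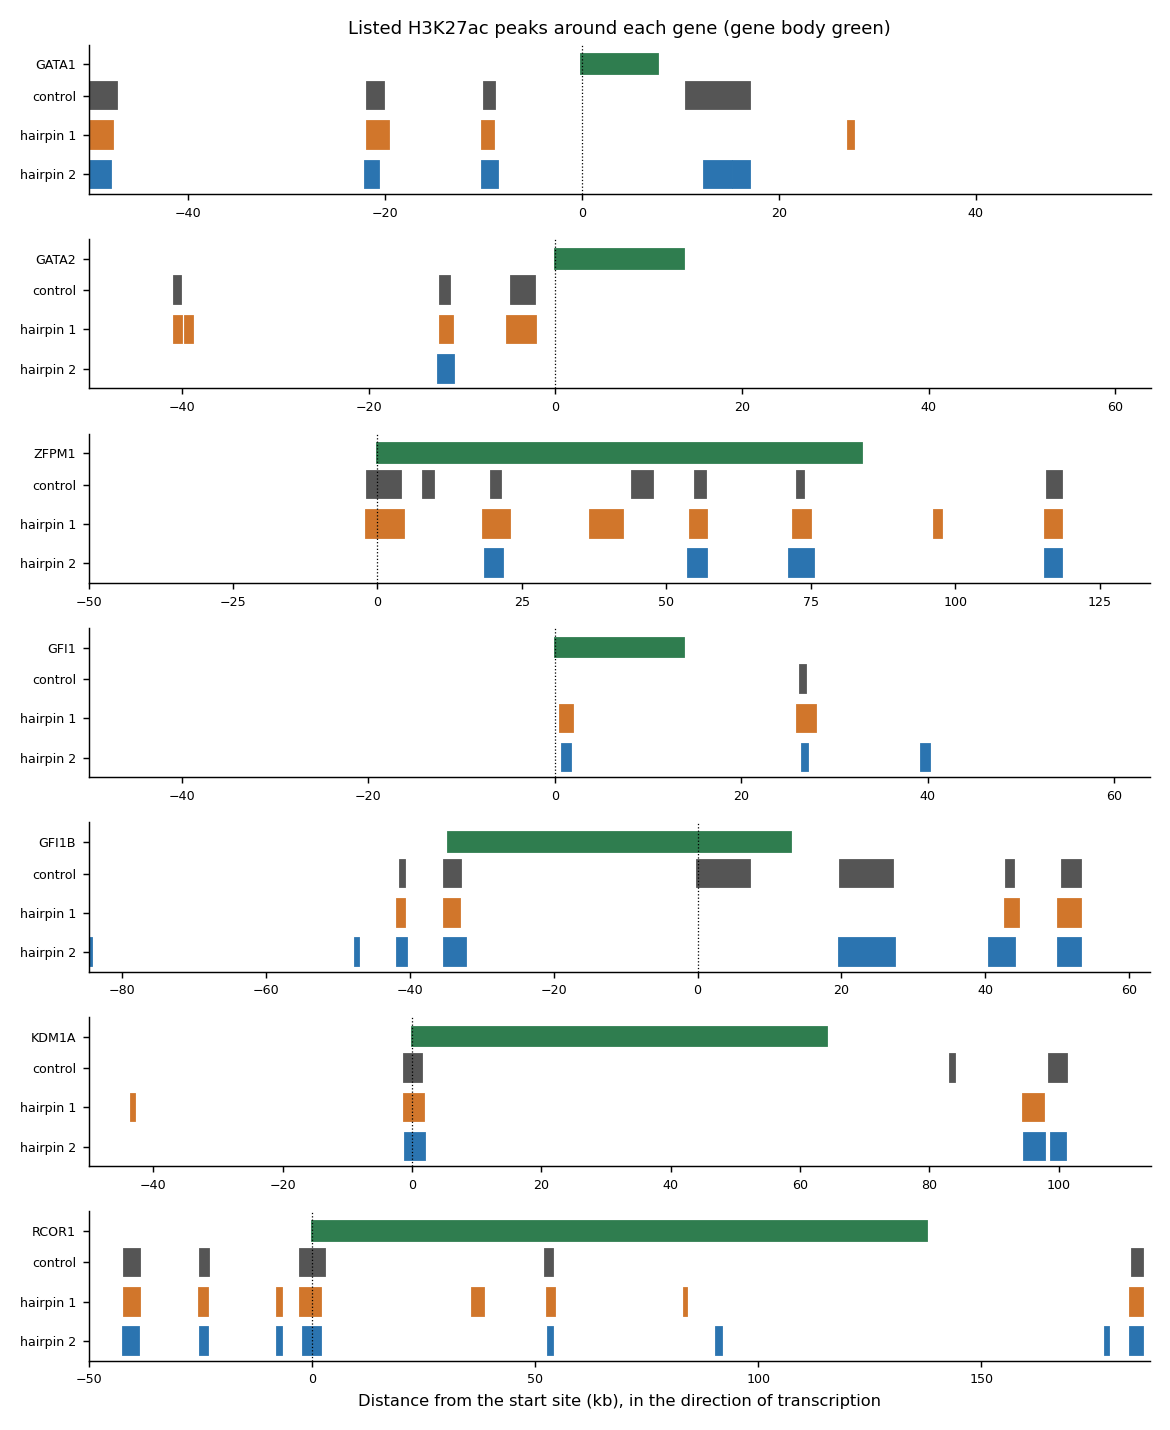
Peaks of the control, hairpin 1 and hairpin 2 lists (rows) around each gene, with the distance from its canonical start site in kb along the direction of transcription on the x axis and the gene body in green. The peak on the GFI1B start site is in the control row only, and the peak just inside the GFI1 start site is in the hairpin rows only. No row has a peak in the bodies of GATA1 and GATA2.

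The GATA1 gene (chromosome X, 48644948 to 48652718, plus strand) carried no peak over its body in any list. The nearest peak edge lay 8790, 8906 and 8491 bp from its start site (control, hairpin 1, hairpin 2). That peak, upstream at chromosome X, 48634858 to 48636507, was listed every time. It was 1123, 1188 and 1650 bp wide in the same order, at score percentiles 21.1, 2.22 and 0.916 of the lists. It was thus widest, and closest to the foot of its list, in hairpin 2. Peaks farther upstream were also in every list, in an exon of GLOD5 (1740, 2159 and 1413 bp) and 48.7 kb away (2663, 2430 and 2451 bp). The latter had the highest ranks of the shared GATA1 regions, at percentiles 73.4, 67.0 and 77.6.

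Downstream of GATA1, a peak covered the start site of HDAC6, a cytoplasmic deacetylase whose promoter lies 15.5 kb from that of GATA1. It was 6565 bp wide in the control. In hairpin 2 it was split into peaks of 2822 and 1659 bp, and in hairpin 1 no peak was listed there. Over the whole GATA1 window, peaks covered 12091, 6377 and 9858 bp (control, hairpin 1, hairpin 2). The HDAC6 region made up more than the whole gap between control and hairpin 1. Which gene that region serves was not tested.

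The GATA2 gene (chromosome 3, 128198270 to 128212044, minus strand) likewise had no peak over its body. All GATA2 peaks lay upstream. The one closest to the start site, at chromosome 3, 128214142 to 128217162, was 2492 bp wide in the control and 3021 bp in hairpin 1, and hairpin 2 had none. Its edge was 2207 bp from the start site in the control and 2098 bp in hairpin 1, and it ranked at percentile 27.1 and 69.0. The next region, 11.7 kb upstream, was in every list, with 1098 bp with control shRNA, 1360 bp with hairpin 1 and 1720 bp with hairpin 2. Its percentiles were 30.4, 37.6 and 49.8, so the region present in all lists was widest and ranked highest in hairpin 2, where the closer one was absent. A small region 40.4 kb upstream had 743 bp in the control and 851 bp in hairpin 1. In total 4333, 6106 and 1720 bp of the GATA2 window were covered. The hairpins therefore lay on opposite sides of the control, at 1.41 and 0.397 times its value.

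The sequence just upstream of the GATA2 start site is shown because no list had a peak on it although peaks lay upstream (GRCh37, chr3:128212045-128212294, minus strand, 5′ to 3′). In all sequences shown, capitals mark, on either strand, the letters GATA with A or T before and A or G after them (a GATA word), and AAATCA (a GFI word).
GATA2 upstream: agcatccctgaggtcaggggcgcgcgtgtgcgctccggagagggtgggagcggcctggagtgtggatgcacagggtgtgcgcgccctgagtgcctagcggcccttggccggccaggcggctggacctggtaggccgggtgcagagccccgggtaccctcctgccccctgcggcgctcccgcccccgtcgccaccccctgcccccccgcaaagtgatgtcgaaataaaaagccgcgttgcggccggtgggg
No GATA or GFI word occurred in these 250 bases, of which 72.8% were G or C. The same held upstream of GATA1, with 68.4% G+C. Over all coding genes, 16.8% of such stretches held a GATA word, 8.0% a GFI word, and the median G+C was 63.2%. These are matches of letters, not measured binding.

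ZFPM1 (chromosome 16, 88519688 to 88603439, plus strand) had a large covered total in control and hairpin 1, and less in hairpin 2. Its window had 18909, 27283 and 13546 bp under peaks (control, hairpin 1, hairpin 2). These values exceeded those of 95.5%, 98.1% and 79.8% of all coding genes in the same list, and the window of 184 kb is longer for longer genes. As a share of the window they were 10.3%, 14.8% and 7.37%, against 14.6%, 5.86% and 13.6% for GFI1B. The promoter peak, at chromosome 16, 88517734 to 88524311, was 5997 bp wide in the control and 6578 bp in hairpin 1, at percentiles 69.6 and 66.0. In hairpin 2 the nearest peak began 18642 bp from the start site. The promoter of ZFPM1 was thus marked by a wide peak of middle rank in 2 lists and by none in the third.

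Within the ZFPM1 gene, 3 regions were shared by all lists, at 20.6, 55.4 and 73.4 kb from the start site. The region at 20.6 kb had 1816 bp with control shRNA, 4575 bp with hairpin 1 and 3127 bp with hairpin 2. Its percentiles were 40.1, 22.7 and 38.3, highest in the control. The intronic region at 55.4 kb had 1877, 2869 and 3362 bp, with almost the same rank in each list (percentiles 63.1, 63.2 and 66.1). The region at 73.4 kb, which touches exons, had 1143, 3182 and 4182 bp, at the low percentiles 5.56, 17.4 and 6.68. All 3 were wider in each hairpin than in the control, also in hairpin 2, where the promoter peak was absent. Their ranks did not all rise with width. Intronic peaks of 2006 and 3517 bp were in the control alone (percentiles 5.86 and 23.2), and one of 5751 bp in hairpin 1 alone (37.5). The 3517 bp control peak and the 5751 bp hairpin 1 peak lay next to each other without overlap, the former at 88563757 to 88567273 and the latter at 88556467 to 88562217. The neighbouring gene ZC3H18 had a promoter peak of 2553, 2970 and 2875 bp, at percentiles 93.4, 93.5 and 92.7.

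The ZFPM1 promoter sequence and the centre of its intronic region at 55.4 kb are shown because hairpin 2 had no peak on the first and one on the second (GRCh37, chr16:88519438-88519687 and chr16:88575509-88575708, plus strand). The second is the middle 200 bases of the stretch covered in all lists. Capitals there also mark the CTG of a composite word, CTG and GATA with any 9 bases between them, known as a site of GATA1 together with TAL1.
ZFPM1 upstream: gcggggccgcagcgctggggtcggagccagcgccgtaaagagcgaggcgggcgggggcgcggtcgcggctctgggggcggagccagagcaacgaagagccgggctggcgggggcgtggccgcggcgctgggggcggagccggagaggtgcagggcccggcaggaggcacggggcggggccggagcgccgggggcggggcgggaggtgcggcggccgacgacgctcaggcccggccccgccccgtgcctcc
ZFPM1 intron: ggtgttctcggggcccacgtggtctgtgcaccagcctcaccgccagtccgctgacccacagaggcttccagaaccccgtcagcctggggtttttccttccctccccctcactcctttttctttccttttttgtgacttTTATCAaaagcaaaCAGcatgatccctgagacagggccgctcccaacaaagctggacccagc
The promoter stretch had 83.2% G+C, 39 CpG and 7 copies of the GC box GGGCGG, and no GATA or GFI word. A GC box occurred in 58.7% of all such stretches, and the median number of CpG was 18. The intronic centre held 1 composite word, on the minus strand. Of 7632 distal regions with 1 peak in every list, 3.16% had the composite word in their middle 200 bases and 29.4% had a GATA word.

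GFI1 and GFI1B, which share a SNAG domain and closely related zinc fingers, showed opposite listings within 1 kb of their canonical start sites. GFI1B (chromosome 9, 135819387 to 135867074, plus strand) had a control peak at its canonical start site, at 135853985 to 135861335. It was 7351 bp wide, and no hairpin list had a peak closer than 19731 bp to that start site. The control score there was 52.85, just above the lowest score listed, and its rank was percentile 2.51. A wide peak of very low score was therefore present in 1 library. An upstream start site of GFI1B, at 135820938, lies next to the TSC1 promoter, which had peaks of 2299, 2340 and 3067 bp at percentiles 93.9, 92.4 and 91.1. Counting that start site, GFI1B had a promoter peak in every list.

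Downstream of GFI1B, a region at chromosome 9, 135873812 to 135881496, had a peak of 7286 bp in the control and 7685 bp in hairpin 2, and none in hairpin 1. Its percentiles were 11.4 and 32.2. The next region, 42.6 kb from the start site, was in every list and had 1175 bp with control shRNA, 1918 bp with hairpin 1 and 3637 bp with hairpin 2, at percentiles 8.19, 26.4 and 55.9. It was wider and higher in rank in each hairpin than in the control. The promoter of GTF3C5, a subunit of an RNA polymerase III factor, had 2753, 3285 and 3271 bp at percentiles 82.4, 86.4 and 91.1. Over the whole GFI1B window, peaks covered 21573, 8655 and 20066 bp in the same order. The wide promoter and downstream peaks together made up more than the whole gap between control and hairpin 1. In hairpin 2, which lacked the promoter peak, the window total was 0.93 times the control, and each downstream region and the TSC1 regions upstream were wider than in the control or in hairpin 2 alone.

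GFI1 (chromosome 1, 92938600 to 92952482, minus strand) had a peak just inside its start site in the hairpin lists, at 92950531 to 92951960. It covered another GFI1 start site, at 92951654, in both hairpin lists. It was 1430 bp wide in hairpin 1 and 998 bp in hairpin 2, and began 522 and 736 bp from the canonical start site. Its score was 222.37 in hairpin 1 and 113.87 in hairpin 2, at percentiles 56.7 and 35.7. The nearest control peak was 26274 bp away. That region, beyond the 3′ end of the gene, was in every list, with 664 bp with control shRNA, 1988 bp with hairpin 1 and 656 bp with hairpin 2. Hairpin 2 had another peak of 942 bp at 39.7 kb. The window total was 664, 3418 and 2596 bp, or 5.15 and 3.91 times the control. GFI1 was the only one of the 7 genes past 1.5-fold in the same direction in both hairpins, which 7.7% of 16488 genes with control peaks were in the upward and 3.17% in the downward direction. The control value is that of a narrow peak at percentile 7.43, so the folds rest on few bases. In the higher-scoring 50% of each list GFI1 had a promoter peak in hairpin 1 alone and GFI1B in no list. By hairpin, the 1.5-fold limit was passed upward by GFI1 alone (14.7% of the same 16488 genes in hairpin 1 and 21.5% in hairpin 2). It was passed downward by GATA1 and GFI1B in hairpin 1 (0.527 and 0.401 times the control, against 12.3% of those genes) and by GATA2 in hairpin 2 (0.397 times, against 6.34%).

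The sequences upstream of the pair's canonical start sites are shown because their promoter listings differed in opposite directions (GRCh37, chr9:135853831-135854037, plus strand, ending before the most upstream of the neighbouring start sites, and chr1:92952483-92952732, minus strand). The GFI1 stretch lies outside the hairpin peaks, which are inside the gene. The GFI1B control peak begins at 135853985, near the end of its stretch. The middle of the GFI1 region shared by all lists is added (chr1:92925642-92925841, plus strand).
GFI1B upstream: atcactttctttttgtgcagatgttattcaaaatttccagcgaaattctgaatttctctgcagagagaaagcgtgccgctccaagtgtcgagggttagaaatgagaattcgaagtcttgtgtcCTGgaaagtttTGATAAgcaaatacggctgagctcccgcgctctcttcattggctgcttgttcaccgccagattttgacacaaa
GFI1 upstream: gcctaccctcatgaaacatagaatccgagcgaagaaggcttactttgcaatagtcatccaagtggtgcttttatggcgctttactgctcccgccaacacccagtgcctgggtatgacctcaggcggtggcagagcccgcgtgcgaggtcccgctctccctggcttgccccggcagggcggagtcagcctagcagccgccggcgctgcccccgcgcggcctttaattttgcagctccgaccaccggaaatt
GFI1 downstream: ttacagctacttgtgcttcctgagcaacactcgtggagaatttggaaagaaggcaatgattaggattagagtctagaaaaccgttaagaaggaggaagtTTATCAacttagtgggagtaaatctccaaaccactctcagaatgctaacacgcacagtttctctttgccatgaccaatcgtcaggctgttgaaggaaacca
GFI1B was the only member with a GATA word in the 250 bases upstream of its canonical start site, beginning 116 bases before it. That word is part of a composite word, beginning 127 bases before the start site, which 1.32% of coding genes hold there. Both lie just outside the control peak, before its edge. A GFI word began 31 bases before the start site, past the end of the stretch shown. GFI1B was also the only member without a GC box, and had 42.8% G+C and 9 CpG. The GFI1 promoter had 61.2% G+C, 19 CpG and no GATA or GFI word, while its downstream region held 1 GATA word on the minus strand.

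KDM1A (chromosome 1, 23345936 to 23410182, plus strand) had the highest-ranked promoter peak of the 7 genes in every list. It was 2752, 3179 and 2969 bp wide (control, hairpin 1, hairpin 2), at percentiles 95.3, 97.3 and 97.7. No other peak lay in the gene body. The remaining KDM1A regions were in introns of the neighbour LUZP1 or, for a 614 bp hairpin 1 peak, upstream. In LUZP1 a peak at 23440483 to 23443803 was in both hairpins and not in the control (3287 and 3241 bp), and the next, at 23444490 to 23447257, was in control and hairpin 2 (2768 and 2267 bp). These lay within 1 kb of each other and became 1 region in all lists when such peaks were merged. That joining ran through hairpin 2, the only list with both, since the control and hairpin 1 peaks did not overlap. The KDM1A window had 6297, 7080 and 8477 bp covered, 1.12 and 1.35 times the control.

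RCOR1 (chromosome 14, 103058986 to 103196898, plus strand) had a promoter peak of 5494 bp with control shRNA, 4892 bp with hairpin 1 and 4157 bp with hairpin 2. Its percentiles were 71.6, 83.9 and 91.4, so the peak was narrower where it ranked higher. Upstream regions at 40.4 and 24.2 kb were in every list with like widths (3486, 3508 and 3473 bp, and 1944, 2033 and 1830 bp). The first of these stood at percentiles 97.7, 87.4 and 92.9, above the RCOR1 promoter itself in each list. A region 7.17 kb upstream was in both hairpins (1038 and 1036 bp, percentiles 43.1 and 24.7) and not in the control. In the gene, an intronic region at 53.4 kb was in every list (1947, 1952 and 1216 bp), while intronic peaks of 2887 and 554 bp were in hairpin 1 alone and one of 1363 bp in hairpin 2 alone. Near the end of the window, TRAF3 had a promoter peak in every list (2480, 2732 and 2953 bp). The RCOR1 window had 15351, 19596 and 16820 bp covered, 1.28 and 1.1 times the control.

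Of 13 distal regions in these windows with 1 peak in every list, 5 held a GATA word in their middle 200 bases. Of the 7632 such regions in the genome, 29.4% did. The composite word was in 2 of the 13 (3.16% in the genome), in the introns of ZFPM1 (above) and of RCOR1. The RCOR1 intron and the region upstream of GATA1 are shown because the first holds the composite word and the second is the region nearest to GATA1 (GRCh37, chr14:103112321-103112520 and chrX:48635489-48635688, plus strand).
RCOR1 intron: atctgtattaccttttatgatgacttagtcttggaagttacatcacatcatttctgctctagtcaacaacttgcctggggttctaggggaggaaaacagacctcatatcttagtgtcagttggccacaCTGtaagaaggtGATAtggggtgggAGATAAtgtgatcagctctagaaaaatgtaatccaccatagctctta
GATA1 upstream region: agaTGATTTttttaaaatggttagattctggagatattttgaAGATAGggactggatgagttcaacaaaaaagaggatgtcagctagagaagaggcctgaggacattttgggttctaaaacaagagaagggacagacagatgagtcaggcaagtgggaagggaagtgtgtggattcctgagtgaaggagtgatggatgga
In the RCOR1 intron the composite word and the GATA word were separate. The GATA1 region held a GATA word and a GFI word, the latter on the minus strand. A GFI word was in 3 of the 13 regions, against 10.1% of the 7632 distal regions. No difference from these shares was tested.

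**Figure D2:**
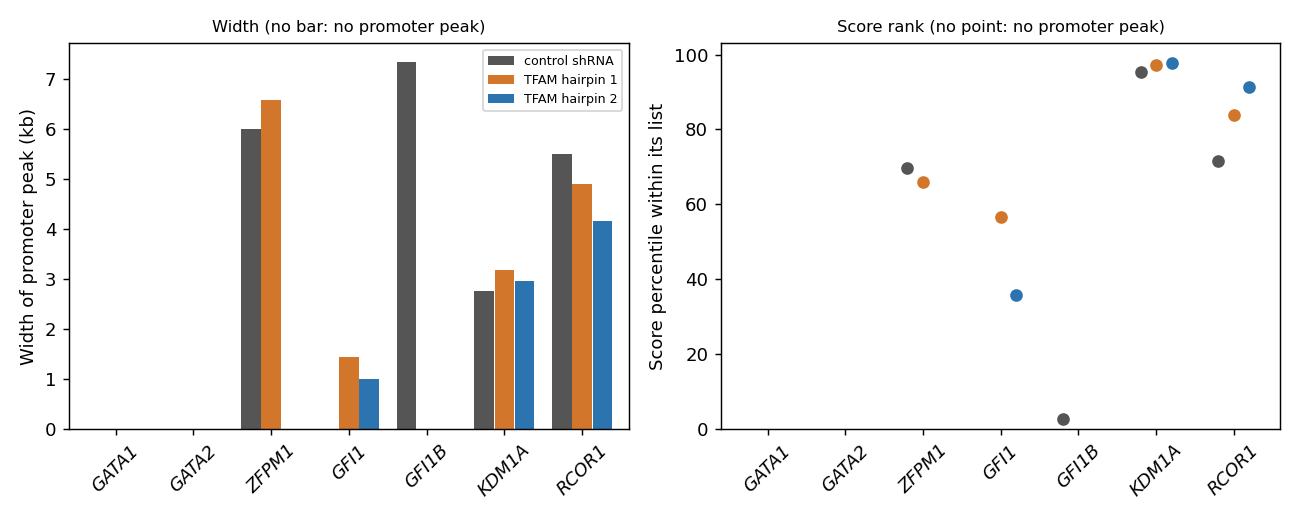
Width in kb (left) and score percentile within its list (right) of the promoter peak of each gene in the control, hairpin 1 and hairpin 2 libraries; a gene with no promoter peak in a list has no bar and no point. The widest bar, GFI1B in the control at 7351 bp, has the lowest point, at percentile 2.51, while KDM1A stays between 95.3 and 97.7.

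At these genes the narrowest and the widest regions were the least often shared. Of the 10 regions whose widest peak was under 1 kb, 0 were in every list, against 4.9% of such regions in the genome. Of the 6 regions with a peak of 5 kb or wider in any list, only the RCOR1 promoter was in every list. The other 5 were the ZFPM1 and GFI1B promoters, the HDAC6 promoter, the region downstream of GFI1B and the ZFPM1 intron in hairpin 1. Of the 28 regions between 1 and 5 kb, 18 were in every list (64.3%, against 60.4% of such regions in the genome). Over the genome 78.2% of 2618 regions with a peak of 5 kb or wider and 47.5% of all narrower ones were in every list. The widest peak of any list had 8841 bp, and whether wider marked stretches were left out by the caller, also at GATA1, GATA2 and GFI1B, was not tested.

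At the promoters of all coding genes, a missing counterpart was commonest for narrow and for very wide peaks. Of 3703 control promoter peaks 2 to 3 kb wide, 1.27% had no promoter peak in hairpin 1, 1.59% none in hairpin 2 and 0.459% none in either. Of 140 control promoter peaks of 7 kb or wider, as at GFI1B, these shares were 17.1%, 25.0% and 11.4%. Of the 11 that also ranked below percentile 10, 4 had none in either, and GFI1B itself is counted among both the 11 and the 4. ZFPM1 and GFI1 are likewise counted in the shares of their classes given next. For control peaks of 5 to 7 kb, the class of ZFPM1, 8.87% had none in hairpin 2. The same rise with width was seen from the hairpin lists, and the median percentile of control promoter peaks was 83.3 at 2 to 3 kb and 30.8 at 7 kb or more. For hairpin promoter peaks under 2 kb, as at GFI1, 13.5% in hairpin 1 and 15.4% in hairpin 2 had none in the control. The part of peak width and score in the listings of GFI1B, ZFPM1 and GFI1 was not tested. The absence of a listed peak is not evidence that a promoter was unmarked.

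**Figure D3:**
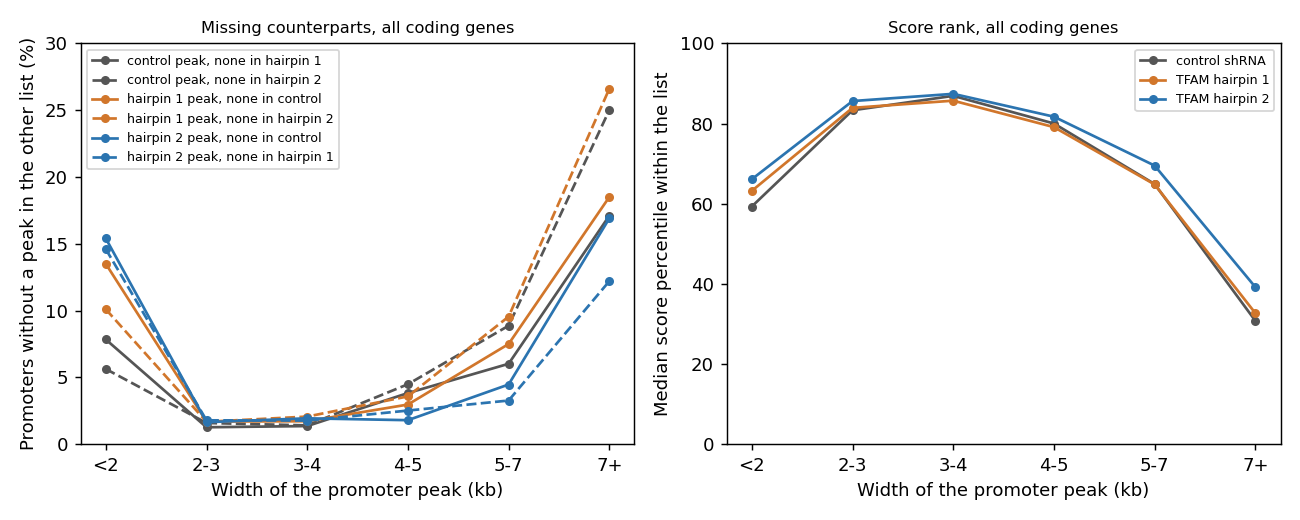
Left, share of promoters (%) of all coding genes with a peak in 1 list and none in another, by the width of that peak in kb; right, the median score percentile of those peaks; colours give the list the peak was in. The missing share is lowest at 2 to 4 kb and highest, for 5 of the 6 comparisons, at 7 kb or more, reaching 17.1% and 25.0% for control peaks, where the control median percentile is 30.8.

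Over all 7 windows the lists covered 79218 bp with control shRNA, 78515 bp with hairpin 1 and 73083 bp with hairpin 2, or 0.991 and 0.923 times the control. Genome-wide the covered sequence was 1.04 and 1.19 times the control. Both member ratios were above 1 with windows of 100 kb on each side (1.16 and 1.13) and in the higher-scoring 50% of each list (1.2 and 1.07). The mean peak width in the windows was 2730, 2450 and 2370 bp, and the median score percentile 32.3, 39.5 and 34.8. Per gene, hairpin 1 exceeded the control in 5 of 7 windows (58.4% of the 16488 genes with control peaks) and hairpin 2 in 3 of 7 (71.0%). The median ratio was 1.28 for hairpin 1 and 0.93 for hairpin 2 among the members, and 1.07 and 1.17 among all genes with control peaks. Of the 44 regions, 19 (43.2%) were in every list, against 49.9% of all regions. In both hairpins and not in the control were 3 (5.91% of all regions), and in the control alone 4 (7.05%). Regions in hairpin 1 alone numbered 7 (9.71%) and in hairpin 2 alone 5 (16.0%), while 3 were absent from hairpin 1 only (7.21%) and 3 from hairpin 2 only (4.29%). Of the 10 regions at a promoter of any coding gene, neighbours included, 6 were in every list, and of 13 intronic regions 4. The shares of these 2 classes over the genome were not computed, so the counts cannot be set against them.

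**Figure D4:**
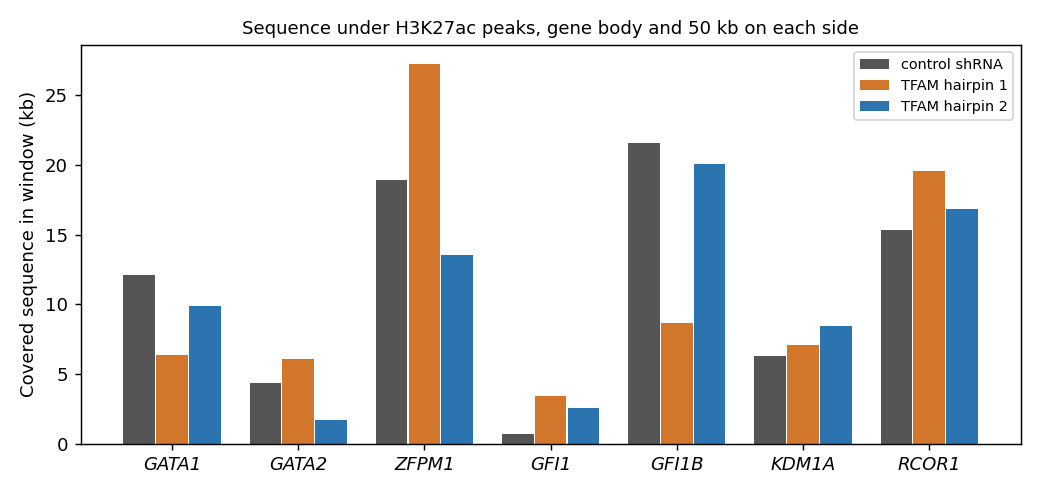
Sequence under listed peaks (kb) in each gene body with 50 kb on each side, as a bar for each of the control, hairpin 1 and hairpin 2 libraries. GFI1B has the tallest control bar (21573 bp) and a short hairpin 1 bar (8655 bp), ZFPM1 the tallest bar of all in hairpin 1 (27283 bp), and GFI1 the shortest control bar (664 bp).

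The genes most like GFI1B, ZFPM1 and GFI1 were taken by the distance between bases covered within 5 kb of the start site in the 3 libraries, where likeness says nothing of function. GFI1B had 5097 bp in the control and 0 in both hairpins, and the nearest were CSRNP1 (5159, 0 and 0 bp), CD96 (4949, 0 and 0 bp) and ARVCF (4941, 0 and 0 bp). ZFPM1 had 5997, 6578 and 0 bp, and the nearest were COMMD3 (5970, 6502 and 0 bp), its read-through COMMD3-BMI1 (5991, 6523 and 0 bp) and TMC8 (6071, 6513 and 0 bp). GFI1 had 0, 1430 and 998 bp, and the nearest were RCN3 (0, 1444 and 1020 bp), B4GALNT4 (0, 1341 and 936 bp) and FAM90A1 (0, 1530 and 909 bp).

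The genes of the LSD1-CoREST and NuRD complexes were mostly marked in every list, against 50.3% of all coding genes. Of 10 other genes of the LSD1-CoREST complex, 8 had a promoter peak in all lists. PHF21A, a histone reader of the complex, had 0, 4847 and 4880 bp within 5 kb of the start site, and GSE1, another component, had 0, 0 and 8047 bp. A promoter peak was in every list for all 11 NuRD genes, with GATAD2B at 5313, 5292 and 5207 bp and MTA2 at 4553, 4889 and 4024 bp. Their median covered length was 3492 bp with control shRNA, 4269 bp with hairpin 1 and 4024 bp with hairpin 2, against 1368, 1493 and 1548 bp for all coding genes.

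The other lists lay nearer to the share of all coding genes, 50.3%. Of 8 genes of factors tied to GATA1, SPI1 among them, 5 had a promoter peak in every list. TAL1, which binds the CTG of the composite word, had 5929, 5523 and 0 bp, absent from hairpin 2 only as was ZFPM1, and KLF1 and LYL1 had none. Of 6 other GATA and FOG family genes, GATA5, GATA6 and TRPS1 had a promoter peak in every list and GATA3 and GATA4 in none. The GATA6 peaks were narrow and of low rank (574, 496 and 537 bp, at percentiles 4.41, 10.9 and 13.7). ZFPM2, which encodes FOG2, had 0 bp with control shRNA, 4587 bp with hairpin 1 and 5452 bp with hairpin 2, at percentiles 68.0 and 63.0. It thus had the opposite listing to ZFPM1 in hairpin 2. Of 8 other SNAG zinc finger genes, SNAI1, SNAI3 and SCRT1 had a promoter peak in every list, with SNAI3 at 4077, 4910 and 4780 bp. SCRT1 had 2382, 2165 and 3201 bp covered within 5 kb of its start site. Its promoter peak in hairpin 2 was 2429 bp wide. The other 5 of these 8 genes had no promoter peak.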

How the data were processed

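H3K27ac ChIP-seq peak lists of 3 K562 libraries were used, grouped by the sample titles. The input library was not analysed here. Per the labels' protocols, only reads with a sole hg19 position were kept. Bowtie 0.12.7, Picard and hg19 are named in the submitters' processing notes without their roles, and the peak names carry a MACS prefix. Each deposited list gives start, end and score of each peak as the authors made them, 1 list per library. No source used here gives the caller's version, settings or use of the input. The lowest listed scores were 50.0, 50.0 and 50.01, so absence from a list can mean a score below that. All peaks lay inside the GRCh37 chromosomes, and positions are 1-based in hg19.

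Peaks overlapping by at least 1 bp were joined into regions. The gene models were those of GENCODE release 44 on GRCh37 (20149 protein-coding, 19868 with a canonical start site). Bases under peaks were summed in each gene body with 50 kb on each side and within 5 kb of the start site. A window was called at 1.5-fold. Sequences were read from GRCh37, the upstream ones up to 250 bases before the start site, leaving out bases past any nearer start site. The code was tested on simulated peaks with known classes. The alternatives were higher-scoring peaks, equal list lengths, other overlaps, merging, windows, promoter widths and start sites.

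Named were the 7 members, marked neighbours, list genes with a promoter peak in some but not all lists or otherwise the 2 with most control bases, and the 3 genes most like each unevenly marked member. Further list genes, SPI1, KLF1, GATA6 and SNAI1 among them, were named outside this rule. One cell type marker is not reported here. The members and lists were chosen with earlier results of these data known. Python 3.11.15, numpy 2.4.6, pandas 2.3.3, pysam 0.24.0 and matplotlib 3.10.9 were used.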

Additional observations from a re-analysis of the deposited data

How the results depend on the processing

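Depth and caller settings limit every statement on absent peaks, and 1 library per condition leaves the spread between libraries unknown. Of 33 values under other settings, 18 stayed within 1.5 times of the counts, or within 0.1 of the ratios, given above. In the higher-scoring 50% of each list, no member promoter was in the control alone (0) or in both hairpins alone (0), since the GFI1B control peak and the GFI1 hairpin 2 peak ranked below that limit. There the windows held 15 regions, 10 of them in every list, and covered 1.2 (hairpin 1) and 1.07 (hairpin 2) times the control. With the start sites of all basic transcripts, 0 member promoters were in the control alone, because GFI1B also starts next to TSC1. With equal list lengths hairpin 2 covered 0.762 times the control. Windows of 10 kb on each side held 22 regions, 9 in every list, with a hairpin 2 ratio of 0.718. Windows of 100 kb held 69 regions, 30 in every list, with ratios of 1.16 and 1.13, so the direction of these ratios depends on the window and the list. KDM1A and RCOR1 had a promoter peak in every list under all settings tried. The other settings were planned. Following the count of promoters in both hairpins and not in the control under some of them was decided after seeing the data. No paired analysis was possible because each group has 1 library.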
